A study of Homo sapiens with 6 samples.

Results

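The cofilin pathway was examined in 6 RNA sequencing libraries of MDA-MB-231, an invasive line from a human breast tumour that lacks hormone receptors, through the genes of 4 kinases (LIMK1, LIMK2, TESK1 and TESK2), 3 slingshot phosphatases (SSH1, SSH2 and SSH3) and 3 cofilin family proteins (CFL1, CFL2 and DSTN). These 10 genes were chosen by symbol and all of them are among the 17064 genes of the deposited table. Cells had been transduced with lentiviral vectors carrying Cas9 and a guide RNA, or with the empty vector, and selected as pools without picking clones. There were 2 vector control libraries from separate transductions (vector 1 and vector 2), 1 library of MRCKα KO cells (guides to CDC42BPA), 1 of MRCKβ KO cells (guides to CDC42BPB) and 2 of DKO cells, in which both genes were targeted with different guide sets (DKO 1 and DKO 2). The guide behind each library is not given by the labels.

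Cofilin binds actin filaments, severs them and speeds their turnover, and it is switched off when a serine near its start is phosphorylated. LIM kinases and TESK kinases place this phosphate, and slingshot phosphatases remove it. LIM kinases are in turn activated by phosphorylation of a threonine in their activation loop, carried out by ROCK, PAK and MRCK kinases, so they stand between the MRCK proteins and actin turnover. The comparisons below ask whether the RNA of these enzymes and substrates differed in cells targeted for MRCKα, MRCKβ or both. RNA levels say nothing about phosphorylation.

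The coding sequences that carry these phosphorylation sites are shown because they define the pathway's substrates and the kinases that can be switched on by MRCK. They were taken from GENCODE v29 transcripts (GRCh38), as the reference and not from the libraries. For the cofilin family, the first 10 codons are given 5′ to 3′ with the codon of the phosphorylated serine, codon 3, in capitals.
CFL1: atggccTCCggtgtggctgtctctgatggt
CFL2: atggctTCTggagttacagtgaatgatgaa
DSTN: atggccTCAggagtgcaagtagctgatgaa
All 3 carry a serine codon at this position, and in each gene the start codon is alone in its coding exon, with an intron before codon 2. The remaining 27 bases lie at chr11:65856216-65856242 on the minus strand for CFL1, chr14:34713535-34713561 on the minus strand for CFL2 and chr20:17600738-17600764 on the plus strand for DSTN. CFL1 and DSTN shared 21 of the 30 bases, CFL2 and DSTN 22, and CFL1 and CFL2 19.

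For the kinases, 10 codons of the activation loop are given, each within 1 coding exon. Capitals mark the codon at the place of the threonine through which LIM kinases are activated, found as the ninth codon before the conserved Ala-Pro-Glu that ends the loop.
LIMK1: aagaagcgctacACCgtggtgggcaacccc
LIMK2: aagaagcgctacACGgtggtgggaaacccc
TESK1: aaggagccattgGCCgtggtgggctcccca
TESK2: agtgagaagctgGCCgtggtgggttcccca
The capitals encode threonine in LIMK1 (codon 508, chr7:74115901-74115930, plus strand) and LIMK2 (codon 505, chr22:31272647-31272676, plus strand). They encode alanine in TESK1 (codon 216, chr9:35607595-35607624, plus strand) and TESK2 (codon 215, chr1:45347657-45347686, minus strand). The 8 bases after the capitals are the same in all 4 genes, and LIMK1 and LIMK2 shared 28 of the 30 bases.

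The expected counts, which are estimated reads per gene and need not be whole, summed to between 10349898 and 10657857 per library. Levels are given as FPKM, reads scaled to transcript length and library total, which allows genes to be compared within a library. The markers fixed for the line were present, with VIM, CD44, KRT18, AXL and EGFR above an FPKM of 1 in every library, while ESR1, PGR and CDH1 stayed under 1. ERBB2, put on the list of low genes, measured 13.2 to 16.2 and EPCAM 0.73 to 2.62. The RNA of the targeted genes remained in every library. In library order, pairs of values being given from library 1 to library 2 here and throughout, CDC42BPA measured 36.4 and 23.3 FPKM in the controls, 29.4 with MRCKα targeted, 34.9 with MRCKβ targeted, and 28.3 and 26.1 with both. CDC42BPB had 30.3 and 29.1 in the controls, 27.3 with MRCKα targeted, 25.7 with MRCKβ targeted, and 23.4 and 23.5 with both. CDC42BPB was lowest in the 3 libraries in which it was targeted, with a log2 fold change in DKO of -0.37 (standard error 0.11, unadjusted p = 0.0132 and adjusted p = 1 in edgeR's test). The RNA of CDC42BPA did not follow the labels in this way, since all 4 knockout libraries lay between the vector libraries. At the protein level, the paper reported very efficient deletion in its pooled MDA-MB-231 lines by immunoblot, which RNA levels do not measure.

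CFL1 and DSTN were by far the most abundant genes of the group. CFL1, the non-muscle cofilin, had a mean FPKM of 943 over the 6 libraries and only 36 of the 17064 genes had a higher mean. DSTN, which encodes destrin or actin depolymerizing factor, followed with 182.6, and CFL2, the muscle-type cofilin, with 34.0. SSH1 was the leading slingshot with 31.5, ahead of SSH2 with 10.04 and SSH3 with 4.67. LIMK1 had the highest mean of the kinases with 21.6, followed by TESK1 with 17.7, LIMK2 with 5.51 and TESK2 with 3.50.

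**Figure D1:**
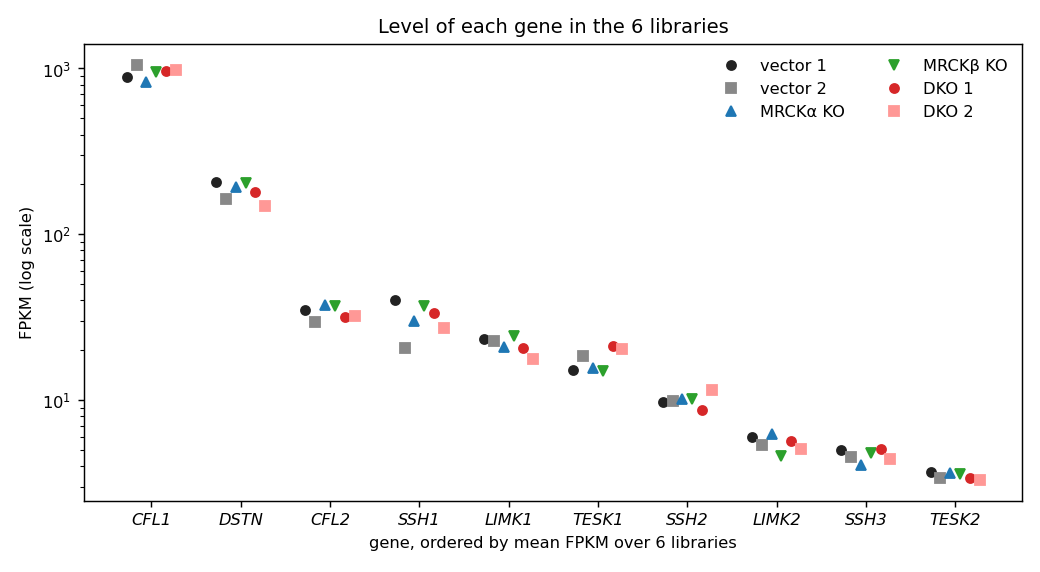
FPKM (log scale) of the 10 genes in each of the 6 libraries, with 1 point per library and genes ordered by their mean. CFL1 lies between 833 and 1053 and DSTN between 148 and 206 in all libraries, the 8 other genes lie below 41, and the points of SSH1 are the most spread.

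The order was partly fixed by non-overlapping ranges over the 6 libraries. CFL1 lay above DSTN, DSTN above CFL2, TESK1 above SSH2, SSH2 above LIMK2 and SSH3 above TESK2 in 6 of 6 libraries without overlap. Neighbours whose ranges overlapped were CFL2 and SSH1, SSH1 and LIMK1, LIMK1 and TESK1, and LIMK2 and SSH3, so these were not separated by their spread. LIMK1 was above TESK1 in the 4 vector and single knockout libraries and below it in both DKO libraries. All 10 genes passed the filter on low counts, with between 106 counts (TESK2 in vector 2) and 13547 counts (CFL1 in vector 2) in a library.

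The 10 genes varied about as much between libraries as other genes did. The standard deviation of log2(FPKM + 0.1) over the 6 libraries had a median of 0.15 for them and of 0.18 for all 13123 genes tested. TESK2 was the steadiest with 0.064, and its FPKM kept between 3.31 and 3.70. SSH1 varied most with 0.34, and the highest library was 1.94 times the lowest, against 1.12 to 1.41 times for the other 9 genes.

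DKO against vector is the only comparison with 2 libraries on each side. In edgeR's quasi-likelihood test, the adjusted p was under 0.05 for 0 of the 10 genes and for 0 of all 13123 genes tested (0.0%). At an unadjusted p under 0.05 there were 0 of the 10 genes and 313 of all genes (2.39%), of which 1.02% were lower and 1.36% higher in DKO. At an unadjusted p under 0.1 there was 1 of the 10 genes, LIMK1, against 5.73% of all genes, and DESeq2's Wald test called 4 of all genes and 0 of the 10. Of the 10 genes, 9 had a lower fitted value in DKO and 1 a higher one, with a median log2 fold change of -0.03 against -0.002 for all genes tested, of which 50.7% were lower. The tally moved with the scaling, since limma on log2 FPKM gave 7 lower and 3 higher, and leaving out vector 1 or DKO 2 gave 6 and 4. FPKM ranges of the DKO and vector libraries did not overlap for 1 gene that was lower in DKO (LIMK1) and 1 that was higher (TESK1). Among all genes tested, 12.3% were lower and 17.0% higher without overlap (29.3% either way), so these counts are near the background.

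LIMK1 measured 23.5 (vector 1) and 22.7 (vector 2) FPKM in the controls, 21.1 with MRCKα targeted, 24.3 with MRCKβ targeted, and 20.5 (DKO 1) and 17.7 (DKO 2) with both. Both DKO libraries lay below the other 4, which held for 4.3% of all genes tested. The mean was 19.1 ± 2.03 (SD, n = 2) in DKO and 23.1 ± 0.62 (SD, n = 2) in vector. The log2 fold change was -0.32 (standard error 0.14, 95% interval from -0.66 to 0.02), with an unadjusted p of 0.0585 and an adjusted p of 1 in edgeR's test. In pooled cells, a lower level in every cell and fewer cells with the RNA cannot be told apart. The value stayed negative when any 1 of the 4 libraries was left out, from -0.44 to -0.22.

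TESK1, a testis-enriched kinase that also phosphorylates cofilin, measured 15.3 (vector 1) and 18.5 (vector 2) FPKM in the controls, 15.6 with MRCKα targeted, 15.1 with MRCKβ targeted, and 21.3 (DKO 1) and 20.3 (DKO 2) with both. Both DKO libraries lay above the other 4, which held for 7.07% of all genes tested. The mean was 20.8 ± 0.71 (SD, n = 2) in DKO and 16.9 ± 2.31 (SD, n = 2) in vector. The log2 fold change was 0.28 (standard error 0.16, 95% interval from -0.10 to 0.65), with an unadjusted p of 0.124 and an adjusted p of 1 in edgeR's test. Without vector 2 the fold change came to 0.45, and without vector 1 to 0.12. The vector libraries themselves differed in TESK1 by a log2 count ratio of 0.32 (vector 2 to vector 1).

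**Figure D2:**
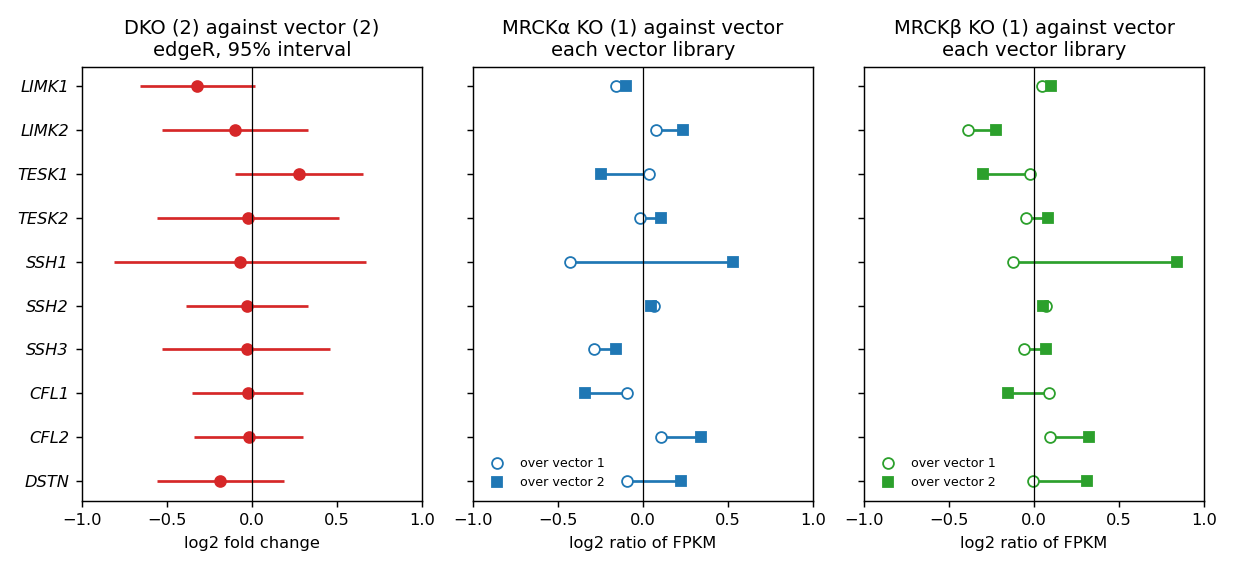
The left panel shows the log2 fold change of DKO against vector (2 libraries each) with the 95% interval of edgeR's fit as a line, and the middle and right panels show the log2 ratio of FPKM of the single MRCKα KO and MRCKβ KO libraries to vector 1 (open circles) and to vector 2 (squares), joined by a line. All 10 intervals in DKO include 0, LIMK1 (-0.66 to 0.02) and TESK1 (-0.10 to 0.65) lie furthest from it, and SSH1 has the widest interval and the widest gaps between vector libraries.

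The other kinases differed less between DKO and vector. LIMK2 measured 6.0 (vector 1) and 5.36 (vector 2) FPKM in the controls, 6.31 with MRCKα targeted, 4.59 with MRCKβ targeted, and 5.68 (DKO 1) and 5.12 (DKO 2) with both, so that the DKO and vector libraries interleaved. Its log2 fold change in DKO was -0.10 (95% interval from -0.53 to 0.33). TESK2 had 3.70 and 3.39 in the controls, 3.65 with MRCKα targeted, 3.58 with MRCKβ targeted, and 3.39 and 3.31 with both, with a log2 fold change of -0.02 (95% interval from -0.56 to 0.51). With 106 to 114 counts per library, the interval of TESK2 still includes changes of the size seen for LIMK1 and TESK1.

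The make-up of the kinase RNA in DKO lay outside that of the other libraries for LIMK1 and TESK1. LIMK1 took 48.5% and 45.4% of the summed FPKM of the 4 kinases in the controls, 45.2% with MRCKα targeted, 51.1% with MRCKβ targeted, and 40.4% and 38.1% with both. TESK1 took 31.5% and 37.1% in the controls, 33.5% with MRCKα targeted, 31.7% with MRCKβ targeted, and 41.8% and 43.7% with both. The ratio of LIMK1 to TESK1, a pair chosen after their values were seen, was 1.54 and 1.22 in the controls, 1.35 with MRCKα targeted, 1.61 with MRCKβ targeted, and 0.965 and 0.871 with both. The summed FPKM of the 4 kinases was 49.2 ± 1.02 (SD, n = 2) in the controls, 46.7 with MRCKα targeted, 47.5 with MRCKβ targeted, and 48.6 ± 3.20 (SD, n = 2) with both, and the DKO libraries held both the highest and the lowest sum. LIMK1 and TESK1 are the 2 genes already seen outside the other 4 libraries in DKO, and shares of 1 sum move against each other. These shares are a description without a background over all genes and were not tested. An exact permutation of 2 against 2 libraries cannot give a two-sided p below 0.333.

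**Figure D3:**
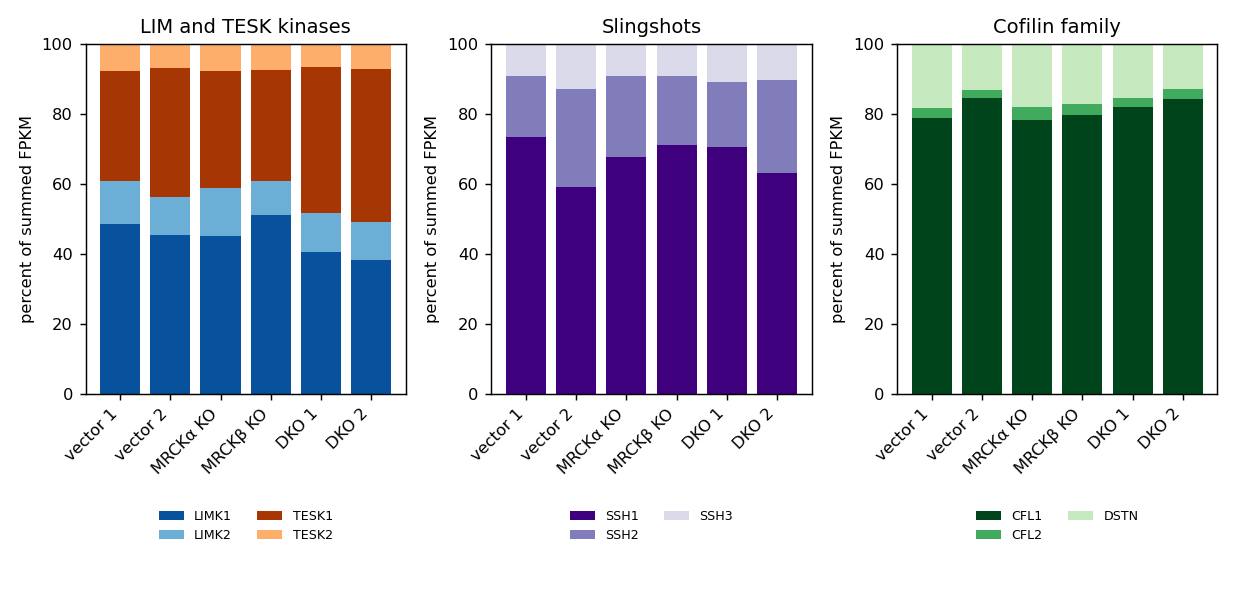
Stacked bars give each gene's percent of the summed FPKM of its class in each library, for the 4 kinases, the 3 slingshots and the 3 cofilins. TESK1 takes 41.8% and 43.7% of the kinase sum in the DKO libraries and 31.5% to 37.1% elsewhere, SSH1 takes 59.0% to 73.3% of the slingshots and CFL1 78.4% to 84.4% of the cofilins.

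The slingshots showed no difference between DKO and vector that exceeded the spread of the libraries. SSH1, which dephosphorylates cofilin and binds actin filaments, measured 40.4 (vector 1) and 20.8 (vector 2) FPKM in the controls, 29.9 with MRCKα targeted, 37.1 with MRCKβ targeted, and 33.4 (DKO 1) and 27.4 (DKO 2) with both. All 4 knockout libraries lay between the vector libraries. Its log2 fold change in DKO was -0.07 with a 95% interval from -0.81 to 0.67, and it came to 0.50 without vector 1 and to -0.47 without vector 2. The direction for SSH1 therefore depended on which vector library was used.

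The gap between the vector libraries was larger for SSH1 than counting error allows. Its counts were 3674 in vector 1 and 1810 in vector 2, and the log2 ratio of vector 2 to vector 1 per total count was -0.98 with an exact 95% interval from -1.06 to -0.90, where only counting error is covered and the libraries, not conditions, are compared. Of all genes tested, 7.8% were at least as far apart between the vector libraries by FPKM. Gaps beyond counting error were not particular to SSH1. The same log2 count ratio was 0.32 for TESK1 (exact 95% interval from 0.13 to 0.52) and 0.24 for CFL1 (from 0.21 to 0.28). It was -0.24 for CFL2 (from -0.36 to -0.11) and -0.295 for DSTN (from -0.37 to -0.22). Between DKO 1 and DKO 2 the log2 ratio of SSH1 counts was -0.29 (exact 95% interval from -0.37 to -0.21). Some other values also differed between the vector libraries. SSH1 transcripts averaged 8235 bases, and the 659 tested genes with transcripts of 8000 bases or more had a median log2 FPKM ratio of vector 2 to vector 1 of -0.155, against 0.03 for the 2604 genes between 1000 and 2000 bases. The 7 fibroblast markers had a summed FPKM of 11.2 (vector 1) and 3.75 (vector 2) in the controls, 4.67 with MRCKα targeted, 7.29 with MRCKβ targeted, and 6.13 (DKO 1) and 4.0 (DKO 2) with both. Among them COL1A1 and PDGFRB exceeded an FPKM of 1 in all libraries, with PDGFRB alone at 5.9 and 1.35 in the controls. DCN, LUM and PDGFRA were listed at 0 in vector 2, and LUM and PDGFRA also in some knockout libraries. The summed FPKM of the 5 leukocyte markers did not move in this way, with 9.11 and 9.34 in the controls and 7.11 to 9.34 over all libraries. The part of transcript length or of these markers in the values of SSH1 was not tested.

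**Figure D4:**
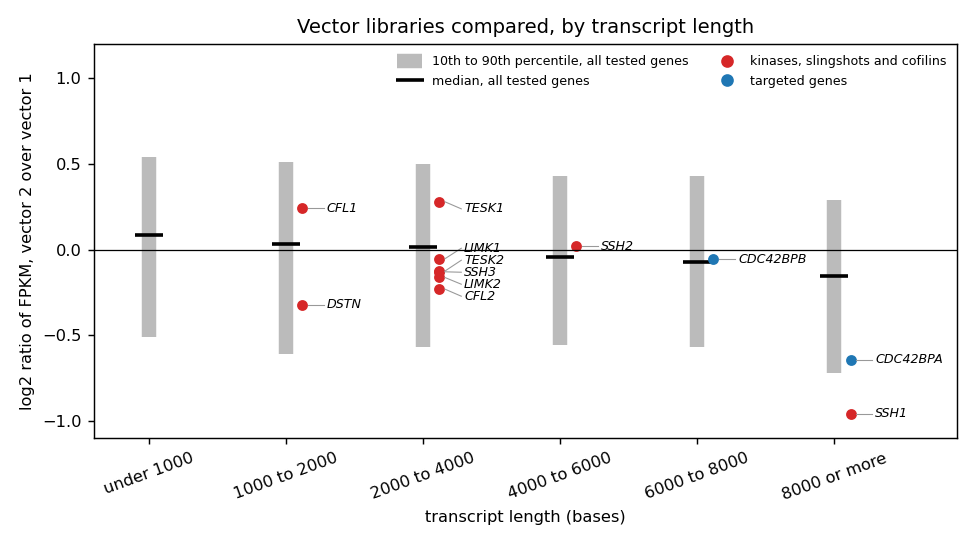
Log2 ratio of FPKM of vector 2 to vector 1 for all tested genes by transcript length (grey bars from the 10th to the 90th percentile, black lines at the median), with the 10 genes in red and the targeted genes in blue. The median of the longest class is -0.155, and SSH1 lies at -0.96, below the 10th percentile of its class at -0.72, while the 9 other red points lie within the range of the grey bars beside them.

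SSH2 and SSH3 were steadier than SSH1 over the 6 libraries, though the DKO libraries were further apart for SSH2. The log2 FPKM ratio of DKO 2 to DKO 1 was 0.39 for SSH2 and -0.29 for SSH1. SSH2 measured 9.73 (vector 1) and 9.85 (vector 2) FPKM in the controls, 10.2 with MRCKα targeted, 10.2 with MRCKβ targeted, and 8.78 (DKO 1) and 11.5 (DKO 2) with both. The DKO libraries thus lay on either side of all others, and the log2 fold change was -0.03 (95% interval from -0.39 to 0.33). SSH3 had 5.0 and 4.57 in the controls, 4.10 with MRCKα targeted, 4.80 with MRCKβ targeted, and 5.11 and 4.43 with both, with a log2 fold change of -0.03 (95% interval from -0.53 to 0.46). The ratio of the summed kinases to the summed slingshots was 0.880 (vector 1) and 1.42 (vector 2) in the controls, 1.06 with MRCKα targeted, 0.911 with MRCKβ targeted, and 1.08 (DKO 1) and 1.07 (DKO 2) with both, so the knockout libraries again lay between the vector libraries.

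The substrates were present in excess of their enzymes at the RNA level. The summed FPKM of the 3 cofilins was between 22.8 and 25.0 times that of the 4 kinases in all 6 libraries. CFL1 measured 890 (vector 1) and 1053 (vector 2) FPKM in the controls, 833 with MRCKα targeted, 948 with MRCKβ targeted, and 961 (DKO 1) and 976 (DKO 2) with both, and both DKO libraries lay inside the vector range. Its log2 fold change in DKO was -0.03 with a 95% interval from -0.35 to 0.30. CFL2 had 34.9 and 29.7 in the controls, 37.6 with MRCKα targeted, 37.2 with MRCKβ targeted, and 32.0 and 32.3 with both, with a log2 fold change in DKO of -0.02 (95% interval from -0.34 to 0.30).

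The difference of DSTN between DKO and vector was within the spread of its libraries. It measured 206 (vector 1) and 165 (vector 2) FPKM in the controls, 192 with MRCKα targeted, 204 with MRCKβ targeted, and 180.5 (DKO 1) and 148 (DKO 2) with both. DKO 2 was the lowest library and DKO 1 lay inside the vector range. The log2 fold change was -0.19 (standard error 0.16, 95% interval from -0.56 to 0.19), with an unadjusted p of 0.278 in edgeR's test. It came to -0.03 without vector 1 and to -0.06 without DKO 2, and to -0.32 and -0.33 without vector 2 and DKO 1. CFL1 took 81.6% ± 4.02 (SD, n = 2) of the cofilin FPKM in the controls, 78.4% with MRCKα targeted, 79.7% with MRCKβ targeted, and 83.1% ± 1.76 (SD, n = 2) with both, and CFL2 took between 2.39% and 3.54%.

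Each single knockout is represented by 1 library, which leaves no replicate check, and all comparisons share the vector libraries. None of the 10 genes differed 2-fold from the mean of both vector libraries in MRCKα KO, MRCKβ KO or DKO, where 4.38%, 3.5% and 1.76% of all listed genes that could be judged by the rule did. Among those that also passed the filter on low counts, as all 10 did, the shares were 2.4%, 1.45% and 0.853%. In MRCKα KO, 3 of the 10 genes lay above both vector libraries (LIMK2, SSH2 and CFL2) and 3 below (LIMK1, SSH3 and CFL1), against 32.4% and 27.0% of all genes tested. In MRCKβ KO, 3 lay above (LIMK1, SSH2 and CFL2) and 2 below (LIMK2 and TESK1), against 30.1% and 29.1%. These counts are near the background.

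In each single knockout, 3 of the 10 genes both lay outside the vector range and had a count ratio to both vector libraries together whose interval left out 0. In MRCKα KO, 1 was higher (CFL2) and 2 lower (LIMK1 and CFL1), against 18.4% and 14.5% of all genes tested, and in MRCKβ KO, 1 was higher (CFL2) and 2 lower (LIMK2 and TESK1), against 16.7% and 14.9%. These counts are near the background too. In MRCKα KO, the log2 ratio of CFL1 counts per total count to both vector libraries together was -0.22 (exact 95% interval from -0.25 to -0.19), while vector 1 and vector 2 themselves differed by 0.24 in CFL1. The log2 ratio of CFL2 counts was 0.21 in MRCKα KO (exact 95% interval from 0.11 to 0.31) and 0.19 in MRCKβ KO (exact 95% interval from 0.09 to 0.29). Against vector 1 and vector 2 singly, the FPKM ratio of CFL2 was 0.11 and 0.34 in MRCKα KO and 0.09 and 0.32 in MRCKβ KO on the log2 scale. That of LIMK2 counts was -0.36 in MRCKβ KO (exact 95% interval from -0.64 to -0.10) and 0.09 in MRCKα KO (exact 95% interval from -0.15 to 0.33). That of TESK1 was -0.18 in MRCKβ KO (exact 95% interval from -0.36 to -0.01), where its FPKM of 15.1 lay just under the 15.3 of vector 1. That of LIMK1 was -0.16 in MRCKα KO (exact 95% interval from -0.29 to -0.03) and 0.04 in MRCKβ KO (exact 95% interval from -0.08 to 0.16). The FPKM ratio of LIMK1 to LIMK2 was lowest in MRCKα KO with 3.35 and highest in MRCKβ KO with 5.29, against 3.92 and 4.23 in vector and 3.62 and 3.45 in DKO. The intervals cover counting error only.

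Other genes of the pathway were described through a list of 49 genes, of which 47 passed the filter on low counts. In DKO, edgeR's test gave 0 of the 47 genes an adjusted p under 0.05, against 0.0% of all genes tested. At an unadjusted p under 0.05 there were 0 of the 47, against 2.39% of all genes tested. DESeq2 called 0 of them as well, and 4 of all genes. Their median log2 fold change was -0.05, with 19 genes higher and 28 lower, where 50.7% of all genes tested were lower. The values ranged from -1.48 for CDC42BPG, which encodes MRCKγ, the third MRCK kinase, to 0.48 for CORO1A, a coronin that assists cofilin at filaments.

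Both extremes rest on few reads. CDC42BPG had 21 and 10 counts in the controls, 5 with MRCKα targeted, 10 with MRCKβ targeted, and 9 and 2 with both, and its log2 fold change in DKO had a 95% interval from -3.44 to 0.47. In MRCKα KO it was the only gene of the list past the 2-fold rule, with an FPKM of 0.12 against 0.37 and 0.21 in the vector libraries. Of all listed genes that could be judged by the rule, 4.38% passed it in MRCKα KO. CORO1A had between 14 and 30 counts per library. By role, the median log2 fold change in DKO was -0.07 for the 6 kinases upstream of LIM kinases, 0.03 for the 3 other cofilin phosphatases, -0.02 for the 8 regulators of LIM and TESK kinases, -0.05 for the 5 tested regulators of slingshots, -0.02 for the 9 tested co-factors of cofilin and -0.04 for the 4 actins and profilins. The 14-3-3 proteins, which bind phosphorylated cofilin, LIM kinases and slingshots, had a median of -0.14, with 6 of 7 genes lower, against 50.7% of all genes tested, and none with an unadjusted p under 0.05.

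Of the 49 genes, 10 lay above and 18 below both vector libraries in MRCKα KO, and 9 and 19 in MRCKβ KO. Among all genes tested, the shares were 32.4% and 27.0%, and 30.1% and 29.1%. Some single members of the list bear on the enzymes directly. PDXP, the phosphatase chronophin that also acts on cofilin, had an FPKM of 11.7 and 12.4 in the controls, 11.99 with MRCKα targeted, 12.1 with MRCKβ targeted, and 13.4 and 11.8 with both. WDR1, which helps cofilin to take filaments apart, kept an FPKM between 214 and 234 in all libraries. ROCK1 was less steady, with 28.9 and 20.2 in the controls, 36.7 with MRCKα targeted, 29.7 with MRCKβ targeted, and 32.1 and 21.95 with both. ROCK2 had 27.5 and 27.9 in the controls, 22.6 with MRCKα targeted, 23.7 with MRCKβ targeted, and 26.5 and 26.3 with both.

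The genes whose pattern over the 6 libraries was most like that of 1 gene of each role were found by the mean absolute difference of centred log2(FPKM + 0.1), among 11712 genes whose mean FPKM reached 1. For LIMK1 these were CHPT1 (0.027), LYST (0.030) and TPD52 (0.031), against a median of 0.19 over all genes. For SSH1 they were ANKRD33B (0.028), FZD4 (0.031) and ARHGAP24 (0.040), against a median of 0.29. ANKRD33B measured 8.37 and 4.41 FPKM in the controls, FZD4 7.02 and 3.57, and ARHGAP24 9.41 and 4.90. All 3 were highest in vector 1 and lowest in vector 2, as SSH1 was, but they were picked for likeness to SSH1 over these same libraries. For CFL1 they were ATP6V0B (0.015), MGAT4B (0.022) and N4BP2L2 (0.025), against a median of 0.15. With 6 libraries and so many genes, close matches are a description only.

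Some reads of these genes may not have been assigned with certainty, as judged from an annotation that need not be the one used for counting. SNX32, CFL1P2, CFL1P4 and DSTNP2 are not listed in the deposited table. In GENCODE v29, the principal CFL1 transcript shares 75 of its 1185 windows of 50 bases (6.33%) with SNX32 and the pseudogenes CFL1P2 and CFL1P4. That of DSTN shares 101 of 3568 (2.83%) with the pseudogene DSTNP2 and 1 further gene. Over all its transcripts, CFL1 shares 920 of 6068 windows (15.2%), and MUS81 on the opposite strand is among the genes sharing them. MUS81 had 2007 counts in all 6 libraries together. TESK1 overlaps CD72 on the opposite strand and shares 451 of 2372 windows (19.0%) with it, and CD72 had 14 counts in all 6 libraries together. TESK2 shares 1.45% of its windows with TOE1, also on the opposite strand, and TOE1 had 1780 counts in all 6 libraries together. SSH1 shares 2.6% and CFL2 2.15% with more than 100 genes each. LIMK1, LIMK2, SSH2 and SSH3 share none in their principal transcripts. Over all its transcripts, SSH2 overlaps EFCAB5 on the opposite strand, which had 170 counts in all 6 libraries together. Whether the counting used strand is not given in the sources used here.

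In the genome (GRCh38, GENCODE v29) the kinases lie at chr7:74082933-74122525 on the plus strand (LIMK1), chr22:31212239-31280080 on the plus strand (LIMK2), chr9:35605305-35610041 on the plus strand (TESK1) and chr1:45343883-45491166 on the minus strand (TESK2). The slingshots lie at chr12:108778192-108857590 on the minus strand (SSH1), chr17:29625938-29930276 on the minus strand (SSH2) and chr11:67303448-67312607 on the plus strand (SSH3). The cofilins lie at chr11:65823022-65862026 on the minus strand (CFL1), chr14:34706769-34714823 on the minus strand (CFL2) and chr20:17569863-17609919 on the plus strand (DSTN).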

How the data were processed

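RNA was sequenced by BGI as single-end reads, and the submitters' processing notes list HISAT, Bowtie2 and RSEM with GRCh38.p11, without their roles. The deposited expected counts are RSEM-type estimated reads per gene, not normalized, with replicates kept apart, and between 60.95% and 61.75% of those above 0 were whole (tolerance 1e-09). The deposited FPKM values were made by the provider from reads, transcript length and library total. The length the authors' files give can differ between libraries for the same gene. Genes absent from a library's file were set to 0.

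Expected counts were rounded, filtered with filterByExpr, scaled by TMM and tested for DKO against vector with edgeR 4.0.16 (glmQLFit, glmQLFTest, R 4.3.3) over all genes, with Benjamini-Hochberg adjustment at 0.05. No replicate block was used. Single knockouts have no test, and exact binomial 95% intervals of count ratios cover counting error only. The study's rule (log2 ratio of mean FPKM of at least 1 in size, replicates over 2-fold apart left out) was applied to all 3 comparisons. A count of 0 allows up to 3 counts. On simulated counts for 12951 genes in the DKO and vector design, edgeR recovered 61% of 100 2-fold and 94% of 100 4-fold differences. There were 26 false calls among the unchanged genes. Differences as small as those of LIMK1 and TESK1 were not simulated. Alternatives were DESeq2 1.42.0, limma 3.58.1 on log2 FPKM with a pseudocount of 0.1 or 1, other scalings and filters, a fit of all 6 libraries, the replicate block, and each library left out. Members, lists and tests were chosen with earlier results of these data known. Named genes are the 10 genes, the targeted genes, the extremes of the pathway list and members past a threshold, the closest patterns and overlapping genes. PDXP, WDR1, ROCK1 and ROCK2 were named after their values were seen. No source says that libraries of a group came from separate cultures beyond their separate transductions or guides, and p-values measure only the spread between them. The value of 1 role within the pathway list is not reported here.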

Additional observations from a re-analysis of the deposited data

How the results depend on the processing

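Depth limits the weaker genes most, since TESK2, SSH3 and LIMK2 had under 230 counts in every library. None of the 10 genes and none of the pathway list was called under any alternative, none of the 10 passed the 2-fold rule, and no scaling moved the median of all genes by over 0.1. Against 0 genes called in DKO, DESeq2 called 4 (ICAM1, TNFAIP3, RPS10-NUDT3 and TNFAIP8L2-SCNM1), leaving out 1 library called from 0 to 5, and the replicate block called 5 (CXCL1, CXCL8, ICAM1, IL24 and TNFAIP3). The replicate block gave LIMK1 a log2 fold change of -0.33 (unadjusted p = 0.0202 in edgeR's test), and same-numbered libraries deviated together (r = 0.30 across 13123 genes), though no source ties the numbers to a batch. The sign of values near 0 changed in limma on log2(FPKM + 0.1), with or without its filter, and on log2(FPKM + 1), to 0.06 for SSH1 in all 3, and to 0.04, 0.04 and 0.03 for SSH2. Leaving out 1 library, which assumes that the remaining library of that group varies like the others, gave -0.47 to 0.50 for SSH1, -0.19 to 0.11 for SSH2, -0.15 to 0.07 for SSH3, -0.14 to 0.10 for CFL1, -0.13 to 0.10 for CFL2, -0.33 to -0.03 for DSTN and -0.46 to 0.21 for CDC42BPA. In TMM CPM, which is not divided by length, the ratio of LIMK1 to LIMK2 in DKO was 3.39, the ratio of kinases to slingshots 0.489 in vector and 0.449 in DKO, the CFL1 share 74.2% and 75.8%, and the ratio of DSTN to CFL1 0.265 and 0.233. In FPKM these were 3.53, 1.15 and 1.07, 81.6% and 83.1%, and 0.194 and 0.170.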
